A study of Mus musculus with 3 samples.

Results

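The nuclear genes of oxidative phosphorylation were followed here on 3 spotted arrays of the mouse neuroblastoma line N1E-115, in cells that carried a piece of a neuronal sodium channel. Spots were taken by the gene symbol in the files: any symbol starting with Ndufa, Ndufb, Ndufc, Ndufs, Ndufv, Cox4 to Cox8, Uqcr or Atp5, and the symbols Sdha, Sdhb, Sdhc, Sdhd and Cycs. This gave 80 spots with 79 symbols, out of 21761 gene probes on the array. By complex there were 34 spots of complex I (6 core subunits, 26 accessory subunits and 2 assembly factors), 4 of complex II, 7 of complex III, 1 of cytochrome c, 17 of complex IV and 12 of complex V. The other 5 spots matched the symbol rule but were kept as a separate group, outside the counts by complex. These were Atp5s (now Dmac2l), both spots of Atp5sl (now Dmac2), the pseudogene Atp5k-ps1 and Cox4nb (now Emc8). The rule reads the symbols only.

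Each array compared RNA of cells given pEGFP-NaV1.2CT-Flag, which encodes a fusion of EGFP with 229 residues from the C-terminal end of the mouse channel NaV1.2 (called NaV1.2CT below), with RNA of cells given pEGFP-C1, which encodes EGFP alone. Both were transfected with polyethylenimine 24 h after plating, RNA was taken 48 h later, and RNA of 3 dishes was pooled. The low glucose group had 1 array, labelled 5 mM glucose, and the high glucose group had 2 arrays, labelled 20 mM. Titles and sample characteristics give these glucose levels, whereas the growth protocol mentions low glucose DMEM alone. EGFP RNA carried Alexa555 and NaV1.2CT RNA carried Alexa647 on every array, so dye and plasmid cannot be told apart. The low glucose array belonged to another array series than the high glucose arrays, so series and glucose cannot be told apart either. Whether the arrays stem from separate cultures is not stated, and p-values then cover only the spread among these 3 arrays, which may be technical. Unless stated otherwise, values below are log2 ratios of NaV1.2CT over EGFP after normalization by loess within print blocks. A value above 0 means a spot brighter in the NaV1.2CT channel relative to the trend of its block. Such a spot can still be dimmer in the NaV1.2CT than in the EGFP channel before normalization.

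Oxidative phosphorylation passes electrons from NADH (at complex I) or succinate (at complex II) through ubiquinone to complex III, from there by cytochrome c to complex IV, and on to oxygen. Complexes I, III and IV pump protons out of the mitochondrial matrix, and complex V, the ATP synthase, lets them flow back to make ATP. Neurons depend on this supply to run the ion pumps that restore sodium and potassium gradients. The core of complexes I, III, IV and V is partly encoded by mitochondrial DNA, which the symbols above do not cover, so only nuclear genes are described. Many of these nuclear genes are known targets of the transcription factors NRF1, GABP (an ETS family factor) and YY1.

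The promoters of the genes were searched for motifs of NRF1, ETS factors and YY1. Whether the motifs relate to the array values was not tested. RefSeq windows of 250 bases before to 50 bases after a gene's start (build GRCm38.p6) were matched for 61 of the genes, with 66 windows in all. The NRF1 motif GCATGCGC was found on either strand in 13.6% of these windows and in 2.71% of all 32851 windows. The ETS motif CCGGAAG was found in 21.2% against 8.86%, and the YY1 motif AAGATGGC in 15.2% against 2.75%. Any of the 3 was found in 42.4% against 13.3%. These are letter matches, not measured binding. Of the windows printed here, Ndufa12 and Cox7b2 belong to the genes that passed the array test, Cycs to the electron carrier between complexes III and IV, and Atp5l to the complex V spot with the highest mean log2 ratio. Capitals mark NRF1 and ETS motifs. Neither the Ndufa12 window, chr10:94198785-94199084 (plus strand), nor the Cox7b2 window, chr5:71548156-71548455 (minus strand), held any of the 3. The Cycs window, chr6:50566520-50566819 (minus strand), held the NRF1 motif, and the Atp5l window, chr9:44920693-44920992 (minus strand), held 1 NRF1 and 2 ETS motifs, the latter on the other strand (CTTCCGG).
Ndufa12: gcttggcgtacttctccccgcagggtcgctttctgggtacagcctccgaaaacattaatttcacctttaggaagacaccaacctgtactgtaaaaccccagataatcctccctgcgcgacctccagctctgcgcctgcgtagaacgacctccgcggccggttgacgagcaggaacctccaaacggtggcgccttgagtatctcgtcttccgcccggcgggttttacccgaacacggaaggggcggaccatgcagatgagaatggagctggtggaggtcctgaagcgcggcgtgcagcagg
Cox7b2: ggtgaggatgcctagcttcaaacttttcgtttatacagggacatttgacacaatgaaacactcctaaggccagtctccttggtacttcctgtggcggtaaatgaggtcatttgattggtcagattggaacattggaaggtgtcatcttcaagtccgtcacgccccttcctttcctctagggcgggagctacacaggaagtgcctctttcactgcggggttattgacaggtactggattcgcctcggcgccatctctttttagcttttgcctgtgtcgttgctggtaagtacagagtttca
Cycs: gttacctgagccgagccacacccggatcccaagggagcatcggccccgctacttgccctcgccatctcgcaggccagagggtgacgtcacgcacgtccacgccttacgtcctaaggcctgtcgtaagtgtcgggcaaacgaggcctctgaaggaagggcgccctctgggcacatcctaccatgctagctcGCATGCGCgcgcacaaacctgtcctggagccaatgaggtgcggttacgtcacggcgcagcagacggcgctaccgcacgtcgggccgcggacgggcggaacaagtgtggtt
Atp5l: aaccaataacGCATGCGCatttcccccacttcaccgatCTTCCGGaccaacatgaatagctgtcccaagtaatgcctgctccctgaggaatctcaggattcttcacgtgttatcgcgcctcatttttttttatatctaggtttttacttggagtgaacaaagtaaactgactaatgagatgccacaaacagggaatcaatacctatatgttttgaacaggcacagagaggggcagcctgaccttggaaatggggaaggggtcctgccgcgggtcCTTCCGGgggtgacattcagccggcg

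Median raw intensity over all spots lay between 1012 and 1545 in the EGFP channel and between 808 and 1228 in the NaV1.2CT channel, and the SD of the log2 ratio over probes lay between 0.10 and 0.11. A spot was called above the empty limit where raw minus background exceeded the empty spots' 95th percentile in each channel, which held for 91.5% to 92.4% of probes per array. Of the 80 spots, 66 were above this limit on all 3 arrays, 8 on some and 6 on none. Those on none were Ndufb3, Ndufa7, Ndufv2, Ndufs7, Sdhc and Atp5j, whose log2 ratios therefore say little about the transcript. All 11 sympathetic neuroblastoma marker spots, Th and Chga among them, were above the limit on all arrays. So were 3 of 4 testis marker spots (Tnp1, Odf1 and Prm2), 7 of 7 glia, 3 of 4 muscle and 3 of 6 fibroblast marker spots. Of the marker spots, Isl1 rose over all arrays (0.18, adjusted p = 0.0425) and no other passed. Brightness alone did not show that the transcript named on a spot was present. Across the 80 spots, Pearson's r between arrays was 0.51 for the high glucose replicates (Spearman's rho 0.43), 0.46 for low glucose with high glucose replicate 1 (rho 0.40) and 0.29 with replicate 2 (rho 0.26). Over all probes r was 0.48, 0.46 and 0.32, and points on 2 arrays share the print block and the dye orientation.

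Most oxidative phosphorylation spots did not differ between the plasmids beyond the spread between arrays. At high glucose 2 of 80 spots passed the test (2.5%), with limma and Benjamini-Hochberg adjustment over all 21761 probes at an adjusted p of 0.05, where 3.08% of all probes passed. Ndufa12 was the spot that rose, beside 0.937% of probes that rose, and Cox7b2 the spot that fell, beside 2.14% that fell. Over all 3 arrays the same 2 spots passed (2.5%), where 3.8% of all probes did, with 1.16% rising and 2.64% falling. The share of spots called was thus near that of all probes in both comparisons. Unadjusted p was under 0.05 for 20 spots at high glucose (25% against 22.5% of all probes) and for 22 over all arrays (27.5% against 24.0%). The smallest absolute log2 ratio that passed among all probes was 0.18 at high glucose and 0.14 over all arrays, and 4 and 5 of the 80 spots were beyond it. The median absolute log2 ratio of the 80 spots was 0.04 and 0.05, with a median standard error of 0.04 in both comparisons, so changes of that size were not detectable with these arrays.

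The sign of the log2 ratio was counted by complex, with no test of a difference between complexes. It was above 0 on all 3 arrays for 24 of the 80 spots (30%), against 21.9% of all probes, and below 0 on all 3 for 10 (12.5%), against 25% of all probes. Complex I held 12 of the 24, complex IV 3, complexes II and V 2 each, and complex III and cytochrome c 1 each, with 3 among the other spots. Complex V held 4 of the 10 that were below 0 throughout, complexes I and IV 2 each, and complexes II and III 1 each. Over the 80 spots the median log2 ratio was 0.02 over all arrays and 0.02 at high glucose, against 0.00 for all probes in both. On single arrays, 50 of 80 spots were above 0 at low glucose, 39 on high glucose replicate 1 and 55 on replicate 2. On replicate 1 alone the median was 0.00, so this shift was not present on every array.

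**Figure D1:**
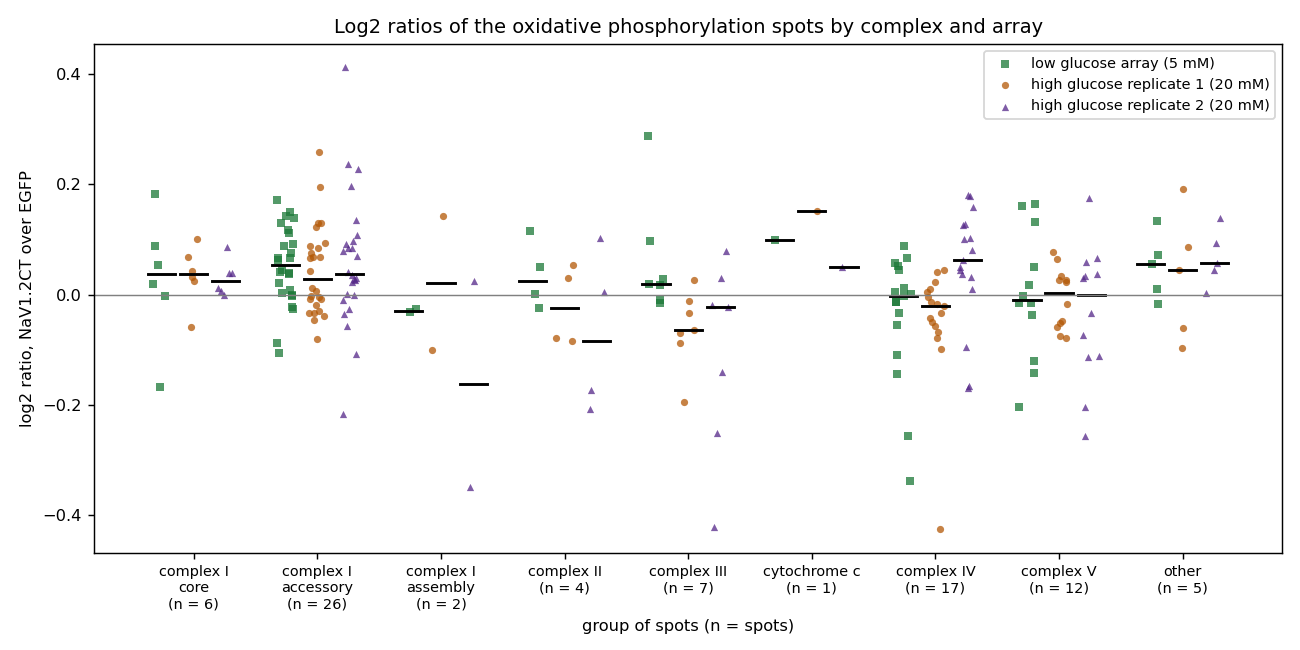
Log2 ratio of NaV1.2CT over EGFP (vertical axis) for each of the 80 spots, by complex (horizontal axis) and array; each marker is 1 spot on 1 array and each black bar the median of that group on that array. Medians lie near 0 in all groups with more than 5 spots, complex I accessory subunits have medians above 0 on each array (0.05, 0.03 and 0.04), and complex III has medians of 0.02, -0.06 and -0.02.

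Complex I, the NADH dehydrogenase that feeds electrons into the chain, had 1 of 34 spots passing the test. Among all probes, 3.08% passed at high glucose and 3.8% over all arrays. Ndufa12 rose, an accessory subunit that sits at the joint between the peripheral arm and the rest of the complex. Its log2 ratios were 0.15 at low glucose and 0.26 and 0.41 on high glucose replicates 1 and 2. All 3 arrays were above 0, and both high glucose arrays above the low glucose array. The high glucose mean was 0.34 (SD 0.11, n = 2 arrays, limma adjusted p = 0.0166), a 1.26-fold change, and the mean over all arrays was 0.27 (SD 0.13, n = 3, adjusted p = 0.0294), a 1.21-fold change.

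The Ndufa12 spot was also among the brightest on the array. Its background-subtracted intensity was 52048, 63132 and 64322 in the NaV1.2CT channel and 34867, 36978 and 34154 in the EGFP channel, in the order low glucose, high glucose replicate 1 and replicate 2. On high glucose replicates 1 and 2, 3 and 2 spots of the array reached the top of the intensity scale in the NaV1.2CT channel. At low glucose 0 spots did, and in the EGFP channel 0 did on any array. The NaV1.2CT values of Ndufa12 at high glucose were close to that limit, and its part in the ratio was not tested. The mean log2 intensity of both channels, A, lay at the 99.9th percentile of probes for Ndufa12. Probes with A over 15 had a median log2 ratio of 0.13, 0.15 and 0.13 on the 3 arrays, and 84.7%, 92.2% and 86.7% of them were above 0. With a second loess fit on intensity the log2 ratio of Ndufa12 was 0.30 at high glucose (adjusted p = 0.0096) and 0.24 over all arrays (adjusted p = 0.0327). Ndufa12 did not pass with plain background subtraction, at 0.32 (adjusted p = 0.141) and 0.25 (0.167), or with the authors' net intensities, at 0.30 (0.130) and 0.23 (0.180), and with median centring in place of loess it reached 1.12 and 1.02. The authors' deposited score, which rose with the log2 ratio over probes, was -0.36, 0.12 and 1.72 for the spot on the 3 arrays, with no common sign. The log2 ratio at which the score crosses 0 was not determined.

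**Figure D2:**
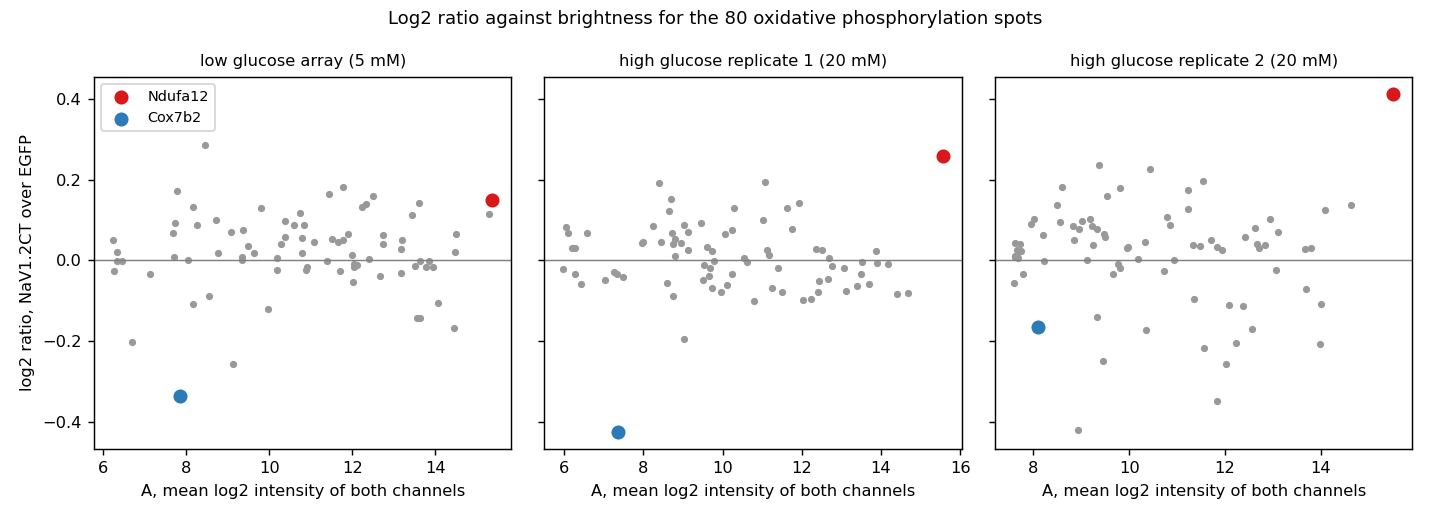
Log2 ratio of NaV1.2CT over EGFP (vertical axis) against A, the mean log2 intensity of both channels (horizontal axis), for the 80 spots on each array, with the 2 spots that passed the test in colour. Ndufa12 is the brightest of the 80 on each array, and Cox7b2 lies among the dimmer spots with A between 7.37 and 8.11.

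None of the other complex I spots passed the test. Of the 26 accessory subunits, 9 were above 0 on all 3 arrays (34.6%) and 1 was below 0 on all 3, Ndufs6. The shares of all probes were 21.9% above and 25% below. The 9 were Ndufa12, Ndufa1, Ndufb4, Ndufa3, Ndufc1, Ndufs4, Ndufa6, Ndufv3 and Ndufab1, named for this pattern after their values were seen. Of these, Ndufb4 was not above the empty limit on high glucose replicate 1, so its sign there says little. Ndufa1, a small membrane subunit encoded on the X chromosome, had log2 ratios of 0.13, 0.09 and 0.24 and came nearest to the threshold among accessory subunits after Ndufa12 (0.17 at high glucose, adjusted p = 0.0922; 0.15 over all arrays, adjusted p = 0.0625). When the fit kept only spots over the empty limit on each array, it passed over all arrays (the call thus depends on that filter). Ndufs6, which carries a zinc site, was lowest of the accessory subunits, at -0.11, -0.01 and -0.11 (mean -0.07, adjusted p = 0.256).

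Core subunits carry the flavin and the iron-sulfur clusters that move electrons. Of the 6 spots, 3 were above 0 on all arrays, among them Ndufs3 and Ndufs7 (the latter below the empty limit), and none passed. Ndufs3 was highest of the core subunits, at 0.18, 0.10 and 0.09 (mean 0.12, SD 0.05, n = 3, adjusted p = 0.0863). Ndufv1, the flavin subunit, was bright at low glucose only: its EGFP intensity was 25093 there but 6.12 and 3.44 on the high glucose arrays, below the empty limit, so its plasmid ratio was measured at low glucose alone (-0.17). The spot of Ndufb4, an accessory subunit, was likewise below the limit on high glucose replicate 1, with EGFP intensities of 11594, 3.53 and 3079 on the 3 arrays. The high glucose arrays thus also differed from each other at the Ndufb4 spot, which bears on its high glucose mean and test. The files give the same symbol at each position on all 3 arrays. Whether both array series carried the same probe there was not tested, which bears on every low glucose value and every difference between glucose levels.

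Both assembly factors were bright on all arrays. Ndufaf1, which helps join the membrane part of the complex, was at -0.03, -0.10 and -0.35 (all arrays -0.16, adjusted p = 0.135; high glucose -0.22, adjusted p = 0.0709). Its low value on high glucose replicate 2 stood apart from the other arrays. Ndufaf1 passed at high glucose with a second loess on intensity and with only spots above the empty limit. Ndufaf2, a relative of Ndufa12 that holds its place during assembly, was at -0.03, 0.14 and 0.03, with no common sign. The median over the 34 complex I spots was 0.03 over all arrays, and under the 11 alternatives it ranged from 0.03 to 0.11, above 0 in each.

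**Figure D3:**
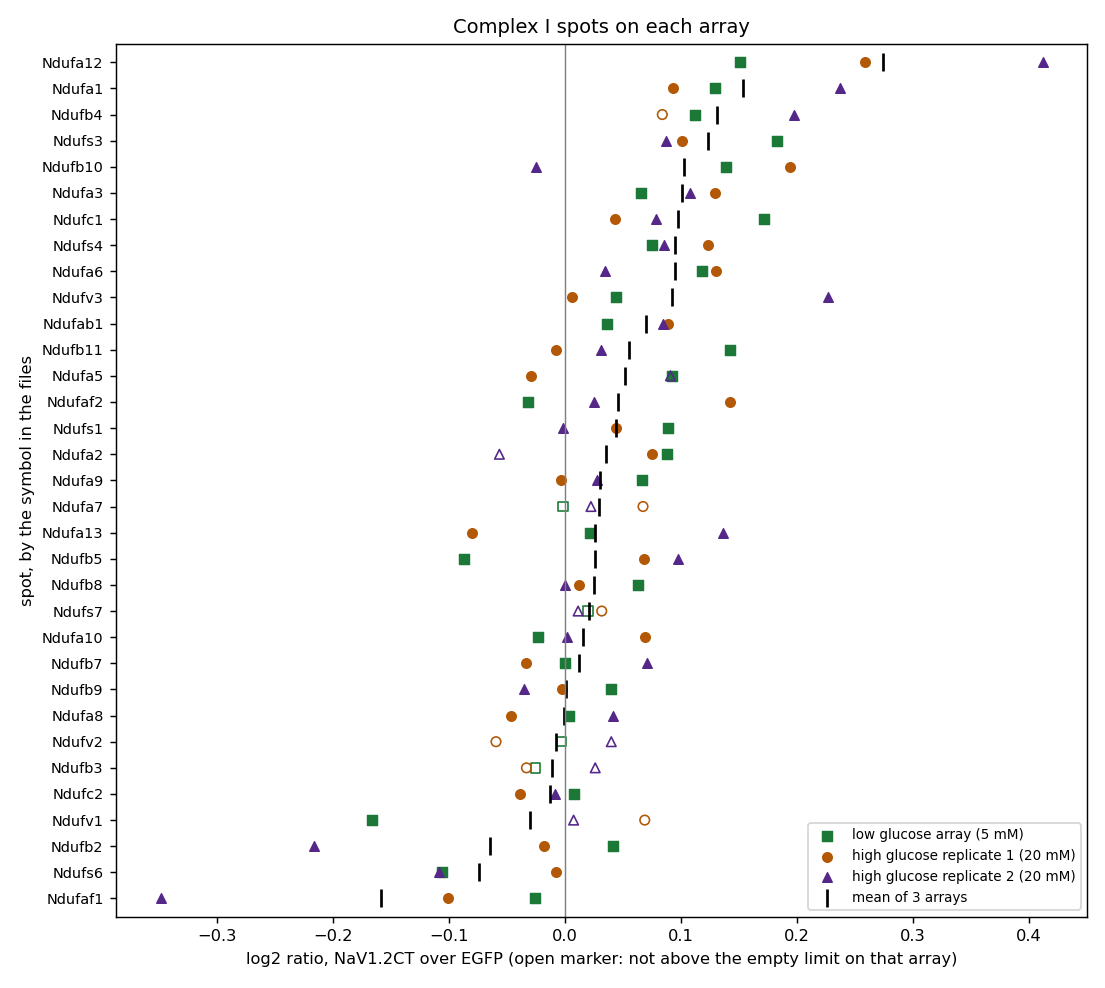
Log2 ratio of NaV1.2CT over EGFP (horizontal axis) for 33 of the 34 complex I spots (vertical axis), sorted by the mean over 3 arrays (black bar); markers are single arrays, and open markers show spots not above the empty limit there. Ndufa12 has the highest mean (0.27) and Ndufaf1 the lowest (-0.16), and for 11 of the 33 spots shown all 3 markers lie above 0.

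No spot of complex II, succinate dehydrogenase, passed the test. Sdha, the flavin subunit that binds succinate, was at 0.11 at low glucose but -0.08 and -0.21 at high glucose (high glucose mean -0.15, adjusted p = 0.111). Its sign thus differed between the glucose groups. Sdhb, the iron-sulfur subunit, was at 0.00, 0.05 and 0.10. Sdhd, a membrane anchor, was at -0.02, -0.08 and -0.17 (all arrays -0.09, SD 0.07, n = 3, adjusted p = 0.194), below 0 throughout. Sdhc, the other anchor, was not above the empty limit on any array. The median over the 4 spots was -0.02 over all arrays and changed sign under 4 of 11 alternatives.

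Complex III, which passes electrons from ubiquinol to cytochrome c, had no spot passing the test and 3 of 7 spots with an unadjusted p under 0.05 at high glucose, where 22.5% of all probes had one. Uqcrc1, a core protein facing the matrix, was lowest at 0.02, -0.09 and -0.42 (high glucose -0.25, SD 0.24, n = 2, adjusted p = 0.0793). Uqcrfs1, the Rieske iron-sulfur protein, was at -0.01, -0.07 and -0.25 (high glucose -0.16, adjusted p = 0.112), and Uqcrh, the hinge protein, at 0.02, -0.19 and -0.14 (high glucose -0.17, adjusted p = 0.0663). For each of these 3 spots both high glucose arrays lay below the low glucose array. Uqcrb was the highest, at 0.29, 0.03 and 0.08 (all arrays 0.13, adjusted p = 0.158), and was above 0 on every array. Uqcrc2, the other core protein, was at 0.10, -0.03 and -0.02. Uqcrq was at -0.02, -0.01 and 0.03, and Uqcr, now named Uqcr11, at 0.03, -0.06 and -0.02. Uqcrh passed at high glucose under 3 alternatives, a second loess on intensity, a prior variance that follows intensity, and only spots above the empty limit, and Uqcrc1 passed under the last of these.

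Cytochrome c, the soluble carrier between complexes III and IV, had 1 spot, Cycs, whose promoter with an NRF1 motif is printed above. Its log2 ratio was 0.10, 0.15 and 0.05, above 0 on every array, with a mean of 0.10 (SD 0.05, n = 3) that did not pass (adjusted p = 0.138; 0.22 at high glucose).

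Complex IV, cytochrome c oxidase, had 1 of 17 spots passing the test. Of all probes, 3.08% passed at high glucose and 3.8% over all arrays. Cox7b2 fell, a form of subunit 7b known from testis. Its log2 ratio was -0.34 at low glucose and -0.43 and -0.17 on the high glucose arrays. All arrays were below 0, with the low glucose value between the high glucose values. The high glucose mean was -0.30 (SD 0.18, n = 2, adjusted p = 0.0371), a ratio of 0.815, and the mean over all arrays -0.31 (SD 0.13, n = 3, adjusted p = 0.0204), a ratio of 0.807. The spot was dim, at the 8.66th percentile of A, with intensities of 216, 153 and 147 in the EGFP channel and 118, 66.3 and 77.8 in the NaV1.2CT channel, and it was not above the empty limit on high glucose replicate 1. Probes with A from 7 to 8 had median log2 ratios of -0.07, -0.06 and 0.01 on the 3 arrays. On high glucose replicate 2 Cox7b2 had A of 8.11, outside that range, so the last median is not of probes as bright. With plain background subtraction Cox7b2 was at -0.57 (adjusted p = 0.0523) and over all arrays -0.53 (0.067), and with the authors' net intensities at -0.48 (0.057) and -0.47 (0.0872), so it did not pass in either. On high glucose replicate 1 alone it was at -0.43 and on replicate 2 alone at -0.17. The deposited score was -2.56 at low glucose and -1.88 on high glucose replicate 1, and it was missing on replicate 2.

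Tissue forms of complex IV subunits were compared with their widely expressed counterparts, each as the ratio of its own spot. Cox4i1, the common form of subunit 4, was at 0.01, -0.06 and 0.04, and Cox4i2, the form known from lung and hypoxia, at -0.05, -0.07 and 0.13. Cox6a1 was at 0.06, 0.00 and 0.05, while Cox6a2, its heart and muscle form, was at -0.003, -0.08 and -0.17 (high glucose -0.12, adjusted p = 0.142). The Cox6a2 values were below those of Cox6a1 on all 3 arrays, but the probes differ and the difference was not tested. Cox7a1, the muscle form of subunit 7a, had the highest mean of complex IV, at 0.05, 0.04 and 0.18 (mean 0.09, SD 0.08, n = 3, adjusted p = 0.204). Cox7a2, its common form, was above the empty limit at low glucose only (-0.11). Cox7a2l, which joins complexes III and IV into supercomplexes, was at -0.26, 0.01 and -0.09 (mean -0.11, adjusted p = 0.201). Cox8a, Cox8b and Cox8c, the common, muscle and testis forms of subunit 8, had means of 0.04, 0.03 and -0.02. Cox6b1 was at 0.01, 0.00 and 0.08. Ndufa4, first placed in complex I and now counted in complex IV, was at -0.03, -0.03 and 0.10 and below the empty limit at low glucose.

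The sign of the complex IV spots differed between the high glucose replicates. On replicate 1, 5 of 17 spots were above 0, on replicate 2 there were 14, and on the low glucose array 8, with medians of -0.02, 0.06 and 0.00. Of the 17 spots, 10 lay in the first row of a print block, where 4.80% of all probes lay. The 1027 other gene probes in that row had medians of -0.03 on replicate 1, -0.01 on replicate 2 and 0.00 at low glucose. The part of print position in the complex IV values was not tested beyond this.

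Complex V, the ATP synthase, had no spot passing the test. In its catalytic head, Atp5a1 (alpha) was at -0.02, -0.06 and -0.07, Atp5b (beta), which forms the catalytic sites, at 0.02, 0.06 and 0.03, and Atp5c1 (gamma), the rotating shaft, at -0.002, -0.08 and -0.26. The alpha and gamma spots were below 0 throughout and the beta spot above 0 throughout. Atp5d (delta) was at 0.16, 0.03 and -0.11, and Atp5e (epsilon) at -0.02, 0.02 and 0.06. In the stalk that holds the head still, Atp5f1 (subunit b, now named Atp5pb) was lowest of the complex, at -0.14, -0.08 and -0.20 (mean -0.14, SD 0.06, n = 3, adjusted p = 0.071). Atp5h (subunit d) was at -0.04, 0.03 and -0.11 and Atp5o, which caps the stalk, at -0.12, 0.03 and 0.07. Atp5j was not above the empty limit on any array. In the membrane part, Atp5l (subunit g) was highest, at 0.13, 0.08 and 0.18 (mean 0.13, SD 0.05, n = 3, adjusted p = 0.0785), above 0 on each array. Atp5j2 (subunit f) was at 0.16, -0.02 and 0.04, and Atp5g2, a gene for the proton-carrying ring, at 0.05, -0.05 and 0.03. Subunits of the same enzyme thus lay on both sides of 0. The values of Atp5f1 and Atp5l over the 3 arrays did not overlap, but the pair was chosen here as the lowest and the highest mean, and its difference was not tested.

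**Figure D4:**
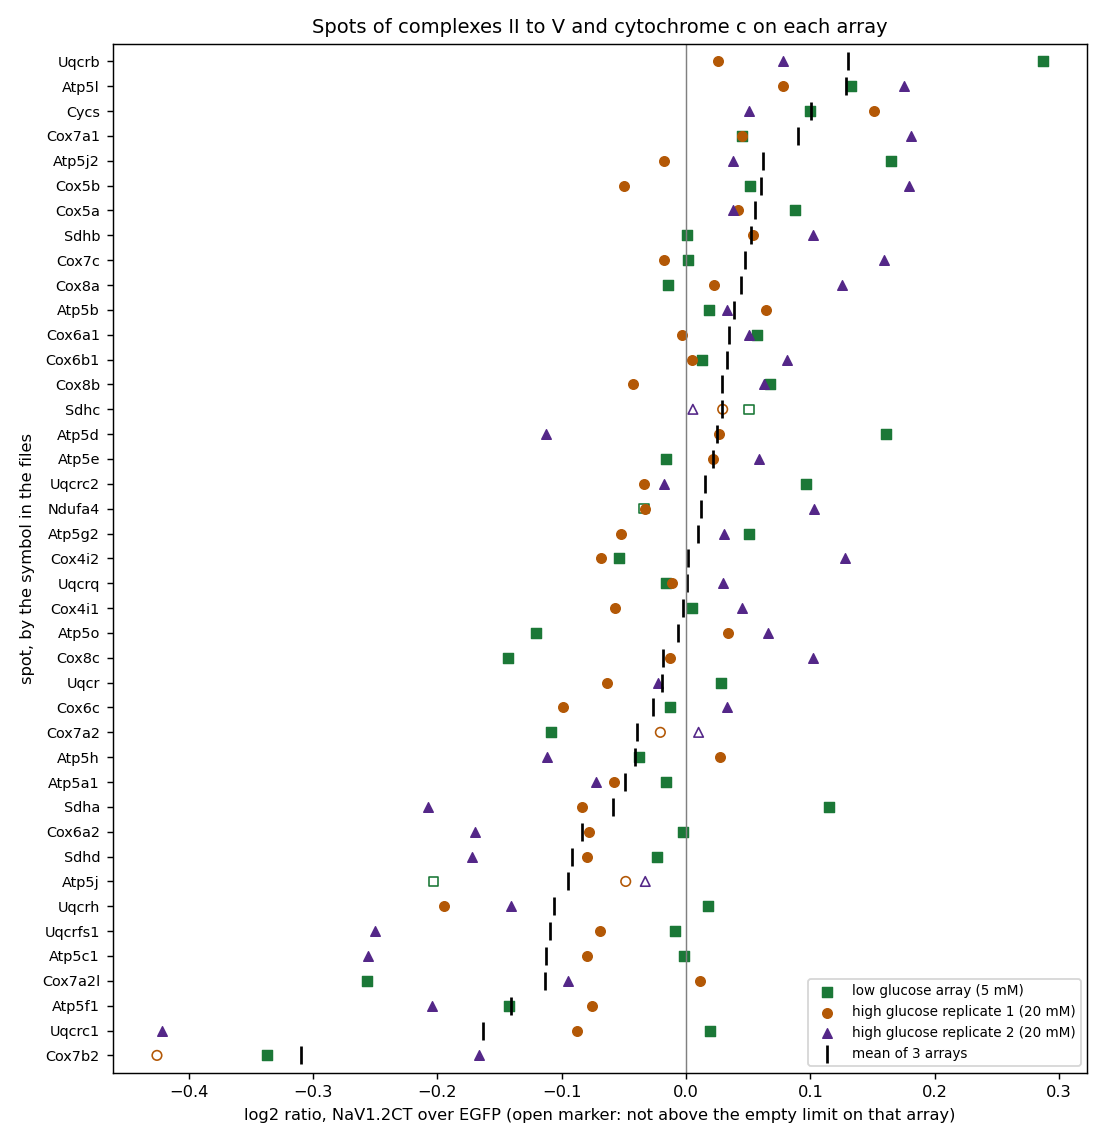
Log2 ratio of NaV1.2CT over EGFP (horizontal axis) for the 41 spots of complexes II to V and cytochrome c (vertical axis), sorted by the mean over 3 arrays (black bar); markers are single arrays, and open markers show spots not above the empty limit there. Cox7b2 has the lowest mean (-0.31), Uqcrb the highest (0.13), and Uqcrc1 and Sdha spread most between the low glucose array and high glucose replicate 2.

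Of the 5 spots kept outside the complexes, Atp5s (Dmac2l) was highest at 0.07, 0.19 and 0.14 (high glucose 0.16, limma adjusted p = 0.0693). Atp5s was once described as a coupling factor of complex V. Atp5k-ps1 was lowest at -0.02, -0.10 and 0.06. The spots named Atp5sl (Dmac2) had means of 0.00 and 0.06, and Cox4nb (Emc8) 0.07. None of the 5 passed in the main setting. Atp5s passed at high glucose with a second loess on intensity and with the intensity-trended prior. Without the 5 spots, 2 of 75 passed in each comparison and 21 were above 0 on all arrays (28%).

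The difference of the plasmid ratio between glucose levels was called for no member. It passed for 0 of 80 spots, with a smallest adjusted p of 0.528 in limma, where 0.0414% of all probes passed (0.023% higher at low glucose and 0.0184% lower). Unadjusted p was under 0.05 for 11 of the 80 spots (13.8%), against 7.67% of all probes. With 1 low glucose array, the fit takes that array to vary like the others, and the smallest absolute difference that passed among all probes was 0.59, larger than that of any of the 80 spots. Uqcrc1 had the highest difference, low minus high, at 0.27 (SE 0.12, adjusted p = 0.645), followed by Sdha at 0.26 (SE 0.08, adjusted p = 0.528) and Uqcrb at 0.23 (SE 0.07, adjusted p = 0.529). Cox7a2l (-0.21), Cox8c (-0.19) and Ndufa12 (-0.19) were lowest.

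Complex III had the highest median of the complexes in this difference, although none of its spots passed, and with median centring complex II was above it (0.15 against 0.10). For 6 of its 7 spots the plasmid ratio was higher at low than at high glucose, and the median difference was 0.15, against 0.00 for all probes. The median was 0.11 against high glucose replicate 1 alone and 0.16 against replicate 2 alone, and it ranged from 0.07 to 0.19 over 10 alternatives. Of the 7 spots, 5 were printed in rows 11 and 12 and the first 2 columns of the leftmost print blocks. The 43 other gene probes printed there had a median difference of 0.02, and the 5 spots a median of 0.19. The medians of the other complexes were 0.07 for II, 0.00 for I, 0.01 for V and -0.04 for IV. No test of a whole complex was made.

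**Figure D5:**
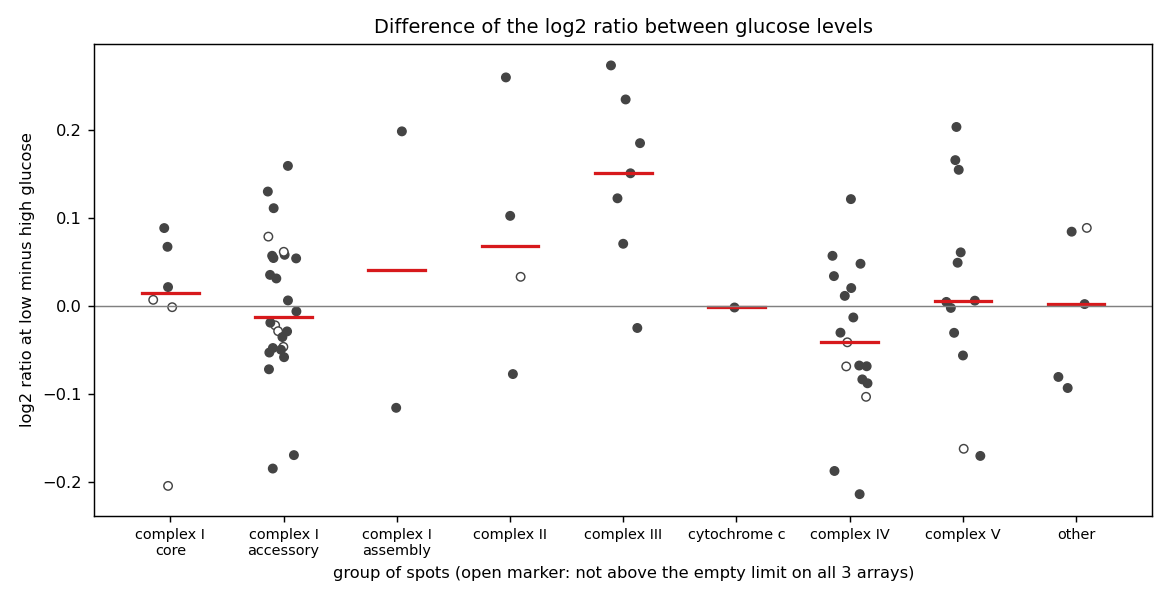
Difference of the log2 ratio, low minus high glucose (vertical axis), for the 80 spots by group (horizontal axis); points are spots, open where not above the empty limit on all 3 arrays, and red bars are medians. Complex III has the highest median of the groups (0.15), with 6 of 7 spots above 0, and no spot passed the test.

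Genes that work around the respiratory chain were counted from lists of the same kind as the spots above. Of 15 spots of the tricarboxylic acid cycle and pyruvate dehydrogenase, which supply NADH, none passed at high glucose or over all arrays. Their median log2 ratio was -0.01 and 0.01, against 0.00 for all probes. None of 17 spots for quinone and heme supply and none of 25 spots of mitochondrial import passed either. At an unadjusted p under 0.05 the counts in these 3 lists were 3, 1 and 3 spots at high glucose and 4, 1 and 7 over all arrays, where 22.5% and 24.0% of all probes had such a p.

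Among 30 spots of assembly factors, 1 rose and 1 fell at high glucose, and 2 rose and 1 fell over all arrays, beside 3.08% and 3.8% of all probes that passed. Cox20, which guides subunit 2 of complex IV, fell, at -0.14, -0.18 and -0.19 (high glucose -0.19, adjusted p = 0.0479; all arrays -0.17, adjusted p = 0.0367). Coa3, a factor for complex IV subunit 1, rose over all arrays, at 0.24, 0.08 and 0.23 (0.18, adjusted p = 0.0483), as did Timmdc1, a complex I assembly factor, at 0.26, 0.18 and 0.09 (0.18, adjusted p = 0.0467). Sdhaf3, a complex II assembly factor, rose at high glucose only among these tests, at 0.06, 0.22 and 0.16 (0.19, adjusted p = 0.0491).

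Of 20 spots of regulators, 2 fell at high glucose and 1 over all arrays, beside 2.14% and 2.64% of all probes that fell. Esrrb, an orphan nuclear receptor, was at -0.06, -0.38 and -0.20 (high glucose -0.29, limma adjusted p = 0.0274). Over all arrays Esrrb did not pass (-0.21, adjusted p = 0.0635). Gabpb1, a subunit of GABP, was at -0.56, -0.81 and -0.35 (high glucose -0.58, limma adjusted p = 0.0186). Gabpb1 was the regulator that passed over all arrays (-0.58, adjusted p = 0.0114), but its spot was not above the empty limit on any array. Of 20 carriers and uncoupling proteins, 1 fell at high glucose and 3 over all arrays, beside the same shares of all probes (2.14% and 2.64%). Mpc2, part of the mitochondrial pyruvate carrier, was at -0.22, -0.18 and -0.39 (high glucose -0.29, adjusted p = 0.0324; all arrays -0.26, adjusted p = 0.0268). Vdac1, the outer membrane channel, was at -0.30, -0.15 and -0.19 (all arrays -0.21, adjusted p = 0.0304), and the uncoupling protein Ucp2 at -0.23, -0.13 and -0.14 (-0.16, adjusted p = 0.0465). All 3 were below 0 on every array.

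Of 13 redox defence spots, 1 rose in both comparisons, beside 0.937% and 1.16% of all probes that rose. Prdx5, a peroxiredoxin, was at 0.14, 0.20 and 0.40 (high glucose 0.30, adjusted p = 0.028; all arrays 0.25, adjusted p = 0.0375), and like Ndufa12 it lay above the 99th percentile of A on each array. Of 70 mitochondrial ribosome spots, 3 rose and 1 fell at high glucose and 3 rose and 3 fell over all arrays, beside 3.08% and 3.8% of all probes that passed. Mrpl40 was at 0.17, 0.43 and 0.28 (high glucose 0.36, adjusted p = 0.0141), Mrpl43 at 0.34, 0.21 and 0.31 (all arrays 0.28, adjusted p = 0.0134) and Mrps15 at 0.19, 0.35 and 0.17 (high glucose 0.26, adjusted p = 0.0333). Mrpl43 too lay above the 99th percentile of A on each array. The spots that fell, named after their values were seen, were Mrpl50 (high glucose -0.22, adjusted p = 0.0416; all arrays -0.18, adjusted p = 0.0445), Mrpl11 (all arrays -0.18, adjusted p = 0.0375) and Mrpl44 (all arrays -0.16, adjusted p = 0.044). In the difference between glucose levels no spot of any of these 8 lists passed, and 10 of 210 had an unadjusted p under 0.05, against 7.67% of all probes.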

How the data were processed

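RNA of N1E-115 cells was measured on 3 spotted arrays with 2 colours and 23232 spots each. Per the file headers, the deposited files give the raw and background intensity of each spot and channel as means, a net intensity, the ratio of EGFP over NaV1.2CT net intensity, and a z-score. The deposited score correlated with the log2 ratio used here at Spearman's rho of 0.928, 0.923 and 0.942 over probes, so it rose with that ratio. Its sign did not always follow the brighter channel. Ndufa12 at low glucose had a score of -0.36, with intensities of 52048 in the NaV1.2CT and 34867 in the EGFP channel. It was missing for 454, 918 and 8819 spots in the order low glucose, high glucose replicate 1 and replicate 2. The making of the score, the scanner and its software are not given in the sources used here. The deposited ratio was not used.

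Raw intensities were background-corrected with normexp (offset 50) and normalized by loess within each of the 48 print blocks, with 1235 empty and 231 control spots at weight 0. The print block explained 40.4% to 54.6% of the log2 ratio variance with loess over the whole array and at most 0.147% after this step. Repeated spots were averaged, so 21766 gene spots became 21761 probes. limma 3.58.1 in R 4.3.3 (lmFit and eBayes) was fitted to all probes for the high glucose arrays against 0, all arrays against 0, and low minus high glucose, with Benjamini-Hochberg adjustment, two-sided, at 0.05. The fits had 1, 2 and 1 residual degrees of freedom and 8.22, 7.13 and 8.22 from the prior. With 1 residual degree of freedom, at high glucose and in the glucose difference, the prior is poorly determined, so counts there are less steady. The number of arrays limits the precision. Values at low glucose alone were not tested.

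Symbols were updated through RefSeq gene and promoter tables of GRCm38.p6: 74 of the 80 spots carried a current symbol and 6 an older one. Named genes are spots that passed a test and tissue forms of subunits. Also named are the highest and lowest mean of each complex among spots above the empty limit, and the 3 highest and lowest glucose differences. From the lists, at most 3 genes that passed were named. The exceptions are assembly factors and the mitochondrial ribosome, where all that passed were named. All spots of complexes II, III and V were named as well. 1 complex I spot is not reported by name here and is left out of the plot of complex I; it stays in all counts and medians. The members and lists were chosen with earlier results of these data known. Alternatives were 2 other normalizations, a second loess on intensity, plain background subtraction, the authors' net intensities, a brightness filter, an intensity-trended prior and each array left out.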

Additional observations from a re-analysis of the deposited data

How the results depend on the processing

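At high glucose 2 of the 80 spots passed. With loess over the whole array 29 passed (36.2% of the spots, against 34.6% of all probes) and with median centring 22 (27.5% against 37.3%). The count was 5 with a second loess on intensity, and 4 each with only probes above the empty limit and with the intensity-trended prior. It was 0 with plain background subtraction and 0 with the authors' net intensities. Over all arrays 29 passed with loess over the whole array, 24 with median centring and 0 each with plain subtraction and net intensities, and 2 under the other alternatives. With only probes above the empty limit these 2 were Ndufa1 and Ndufa12, as Cox7b2 was left out by that filter. In the glucose difference loess over the whole array and median centring called 1 each, Ndufv1 and Sdha. Ndufa12 and Cox7b2 each passed over all arrays when any array was left out. Leaving out a high glucose array makes the high glucose value a single array with no test: Ndufa12 ranged from 0.26 to 0.41 and Cox7b2 from -0.43 to -0.17. Ndufa12 kept its sign under each alternative, and Cox7b2 under each that kept its spot. The median of the 80 spots at high glucose was 0.02 and turned to -0.003 without high glucose replicate 2, where the complex IV median turned from 0.03 to -0.02.

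Over all probes, 670 passed at high glucose (204 higher) in the main setting, 7527 (3090 higher) with loess over the whole array, 8111 (4021 higher) with median centring, 1011 (342 higher) with the second loess, 50 (10 higher) with plain subtraction and 71 (31 higher) with net intensities. With control spots kept in the loess, an alternative chosen after seeing the data, 459 passed there (150 higher), and the calls among the 80 spots were the same. Over all arrays 827 passed (253 higher), and 7462 (2854 higher), 8793 (4293 higher), 2 (0 higher) and 4 (0 higher) with whole-array loess, median centring, plain subtraction and net intensities, and 474 without high glucose replicate 1. The glucose difference had 9 calls in the main setting and between 6 and 167 otherwise. The cause was not tested. Both plasmids share each array, so each log2 ratio already pairs them within the array. The glucose levels could not be paired, because the low glucose group has 1 array.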

Other observations

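A spot for the ATP synthase membrane subunit DAPIT was not among the 80 because its file symbol is Usmg5 (now Atp5md), and it is named here after its values were seen. It was at 0.10 at low glucose and 0.24 and 0.28 on the high glucose arrays, above 0 on all 3, and passed at high glucose (0.26, limma adjusted p = 0.0222) and over all arrays (0.21, adjusted p = 0.0368). A second spot for Usmg5 was at 0.07, 0.02 and -0.07 and did not pass (adjusted p = 0.940 over all arrays). The spots of this gene thus disagree. The other 7 spots whose current symbol alone fits the spelling, such as Uqcr10 and Ndufaf3, did not pass in either comparison.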
